A study of Mus musculus with 15 samples.

Results

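The effect of losing Esr1 that female and male livers had in common was measured in all 15 liver RNA-seq libraries of the study, so every library entered and none was chosen. The libraries came from 8-week-old mice, 1 per mouse: 3 WT females, 5 ESR1KO females, 3 WT males and 4 ESR1KO males. All mice carried the strain name B6N(Cg)-Esr1tm4.2Ksk/J. Controls were labelled wild type, ESR1KO mice were homozygous for a deletion of exon 3 of Esr1, and the labels name no agent. The deletion was in every cell of the body, and the study describes these knockout mice as infertile with high testosterone in both sexes. Effects of ESR1 inside the liver, effects that reach it from other organs and effects of the hormone change cannot be told apart in these groups. The common effect was the genotype term of a model with genotype and sex, fitted to 17655 of the 55573 genes of the table, and genes were described by whether each sex moved the same way.

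Estrogen receptor alpha, the protein of Esr1, is a nuclear receptor that binds estradiol and switches on or off genes near its binding sites in DNA. In liver it is known for acting on lipid and plasma protein genes, and it also acts from the brain and pituitary, where it shapes the growth hormone pattern that makes female and male livers different. A knockout can therefore push the sex-biased liver genes in opposite directions in females and males. The common effect asks for the rest, the genes that rose or fell whichever sex lost the receptor.

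Read depth was between 27799061 and 78624766 counts per mouse. Hepatocyte markers summed to between 99330 and 130100 CPM (reads of a gene per 1000000 counts of the library, scaled by the TMM method) in every mouse, and none of the 10 passed the test (edgeR; 3 at an unadjusted p under 0.05, 2 by DESeq2). Libraries of a group differed by more than sampling noise. Of 12 lists of cell type markers, 11 had no gene that passed in the common effect (edgeR; of 82 genes 10 at an unadjusted p under 0.05, 4 by DESeq2), and the exception, adipocytes, is described with the lipid genes. Cholangiocyte markers had common estimates above 0 for 8 of 8. Their sum was 33.6 to 33.9 CPM in WT females, 44.9 to 52.8 CPM in ESR1KO females, 34.8 to 56.3 CPM in WT males and 42.3 to 60.6 CPM in ESR1KO males, so it was separate in females alone. In females Spp1 rose and in males Krt19 and Epcam, and the part of these cells in other rises was not tested. In whole liver, fewer cells of a type and less RNA per cell cannot be told apart. Each library was labelled as 1 mouse, so the spread is between mice.

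The knocked-out gene itself was the check of the labels. Esr1 (ENSMUSG00000019768, chr10:4611593-5005614, GRCm38) stood at 74.7, 88.2 and 82.8 CPM in the WT females and at 19.7, 13.9, 11.7, 9.67 and 10.7 CPM in the ESR1KO females. WT males had 25.0, 31.2 and 52.0 CPM, and ESR1KO males had 16.1, 12.5, 8.22 and 10.53 CPM. Every ESR1KO mouse was below every WT mouse of its sex. The common log2 fold change was -2.17 (SE 0.22, edgeR adjusted p = 2.3e-05), with no difference between the sexes that passed (interaction adjusted p = 0.21). Counts were made per gene, so they do not show which exons the remaining reads came from.

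At an adjusted p under 0.05, 478 genes passed in the common effect. Of these, 269 were higher in ESR1KO mice, which is 1.52% of the genes tested, and 209 were lower, which is 1.18%. This balance turned with scaling by total counts, to 219 higher and 227 lower, and at a log2 fold change of at least 1.5, to 38 higher and 54 lower. The typical size was moderate, with a median log2 fold change of 0.69 among the rises and -0.69 among the falls, and 156 genes reached a log2 fold change of 1 in either direction. In both sexes the estimate had the same sign for 454 of the 478, opposite signs for 18, and a male estimate of 0 for 6. Tested alone, females passed for 281 of them, males for 93 and neither sex for 145.

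Most genes that passed in 1 sex missed the test in the other, which does not show that the sexes differed. In females 1008 genes passed (5.71% of those tested), in males 250 (1.42%), and the difference between the sexes passed for 343 (1.94%). Of the female calls, 61.3% had the same sign in males, and of the male calls, 49.6% had the same sign in females, against 53.1% of all genes tested. Both sexes passed for 92 genes. In 51 of these the directions were opposite, with 28 up in females and down in males and 23 the reverse, and none of the 51 passed in the common effect (edgeR; 2 at an unadjusted p under 0.05, 0 by DESeq2). The remaining 41 moved alike and all 41 passed in the common effect: 27 rose, 0.153% of the genes tested, and 14 fell, 0.0793%.

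**Figure D1:**
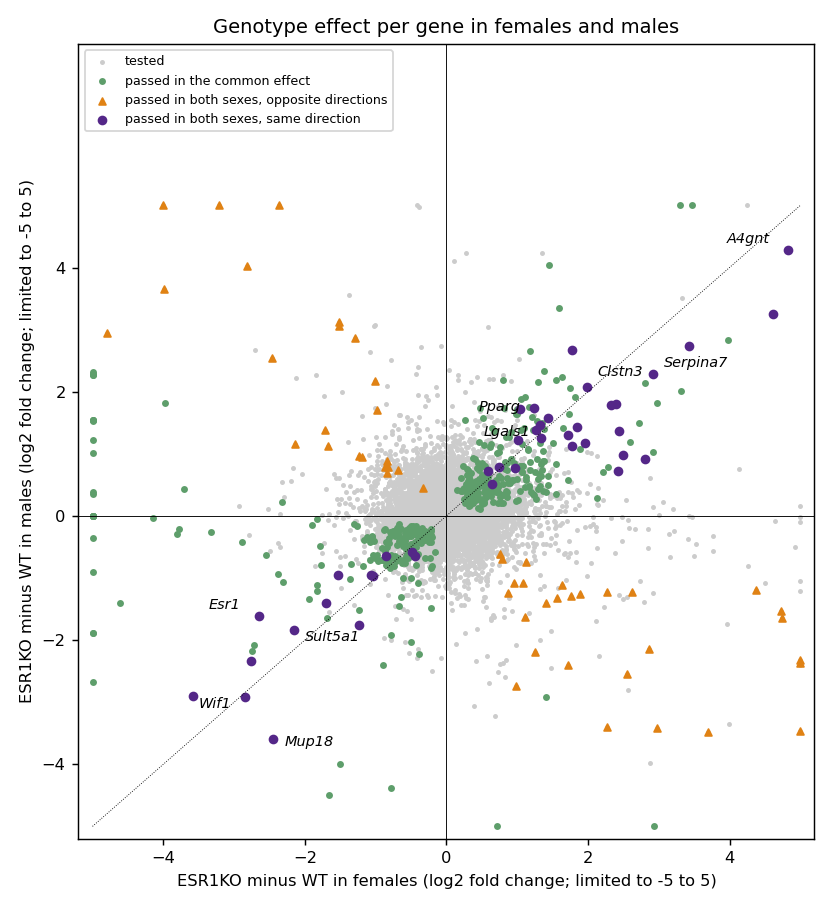
Log2 fold change of ESR1KO minus WT in females (x axis) and males (y axis) for the 17655 genes tested, with values past 5 drawn at 5. The 41 genes that passed in each sex in the same direction (purple circles) lie in the quadrants crossed by the dotted line of equal effect. Aqp4, Snhg11 and 9130409I23Rik lie off that line, with larger rises in females. The 51 that passed in opposite directions (orange triangles) lie in the other quadrants.

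The same values were also read mouse by mouse with no model, which is not separate support for genes that had passed. ESR1KO mice were all above WT mice in both females and males for 194 genes (1.1% of those tested) and all below for 133 (0.753%). Among the genes that passed in the common effect, 136 were separated upward and 81 downward. Of the 41 genes, only 2010003K11Rik had overlapping mice, in females, where 6.05 CPM in 1 ESR1KO mouse was below 6.42 CPM in 1 WT mouse. An interaction passed for 3 of the 41, Aqp4, Snhg11 and 9130409I23Rik, whose rises were larger in females.

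**Figure D2:**
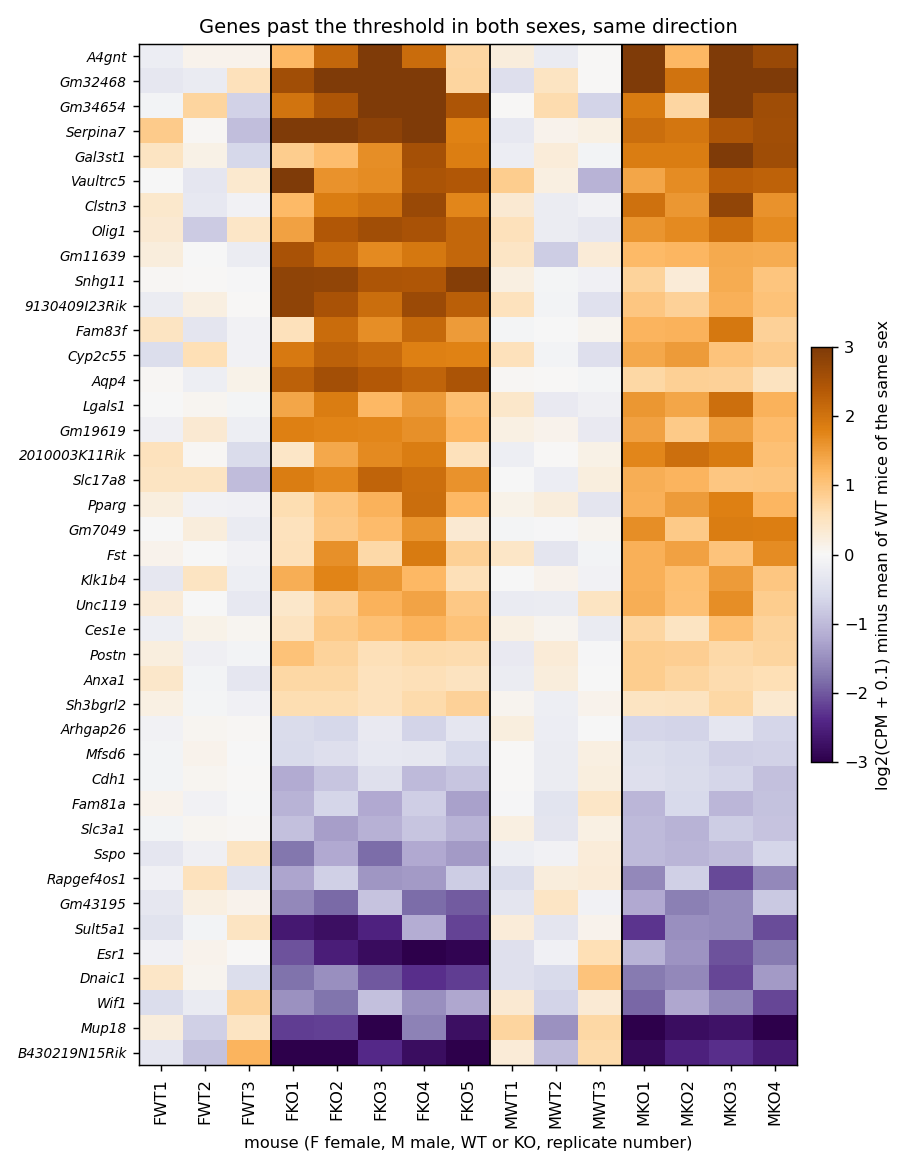
The 41 genes (rows, by common log2 fold change) in the 15 mice (columns), as log2(CPM + 0.1) minus the mean of the WT mice of the same sex, with colours limited at 3 in either direction. ESR1KO columns are orange for the 27 rises and purple for the 14 falls in females and in males, while WT columns stay near 0.

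Mup18, Esr1 and Sult5a1 had the largest falls among protein-coding genes that averaged a log2 CPM of at least 1, had no interaction that passed and had separate genotypes in each sex. Mup18, a major urinary protein that carries pheromones, had 18.6, 9.55 and 21.9 CPM in WT females and 3.30, 3.34, 1.36, 5.02 and 2.26 CPM in ESR1KO females. In males, WT mice had 169.5, 35.8 and 164 CPM and ESR1KO mice 5.78, 14.5, 15.3 and 4.92 CPM. WT males varied by several fold around a WT level far above that of females, yet the lowest WT male was above every ESR1KO male. The common log2 fold change was -3.04 (SE 0.39, edgeR adjusted p = 0.00031). Mup genes are near copies of each other, so the share of reads given to Mup18 is uncertain.

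Sult5a1, a sulfotransferase, had 31, 38.99 and 57.6 CPM in WT females against 6.66, 6.04, 7.30, 18.5 and 9.13 CPM in ESR1KO females. WT males had 31.3, 20.0 and 27.8 CPM and ESR1KO males 5.21, 9.12, 8.95 and 5.97 CPM. The WT mean was 42.5 CPM in females and 26.4 CPM in males, and the common log2 fold change was -2.01 (SE 0.23, edgeR adjusted p = 9.1e-05). Slc3a1, the heavy chain of the cystine and dibasic amino acid transporter, had a small error. Its WT levels were 37.2, 41.0 and 40.1 CPM in females and 58.0, 38.9 and 56.8 CPM in males. Its ESR1KO levels were 20.6, 15.6, 18.01, 21.7 and 18.5 CPM in females and 25.1, 23.5, 29.9 and 27.3 CPM in males. The fall was -1.06 in females and -0.95 in males on the log2 scale (common -1.01, SE 0.09, edgeR adjusted p = 1.0e-05).

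Enho encodes adropin, a secreted peptide tied to energy balance. WT females had 31.7, 34.0 and 32.3 CPM and WT males 32.7, 25.8 and 38.5 CPM, with no clear sex difference. ESR1KO females had 11.6, 9.02, 7.56, 8.00 and 9.63 CPM, a tight group, and ESR1KO males had 11.1, 22.9, 6.86 and 18.8 CPM, a wide one. The groups did not overlap in either sex. The common log2 fold change was -1.50 (SE 0.21, edgeR adjusted p = 0.00067), and in males alone the test was missed (-1.12, edgeR adjusted p = 0.060).

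Genes of thyroid hormone handling moved in both directions. Serpina7, the plasma carrier of thyroxine, was the largest rise among well-measured protein-coding genes. WT females had 15.7, 8.53 and 4.22 CPM and ESR1KO females 80.4, 117, 59.6, 74.1 and 28.8 CPM. WT males had 16.7, 22.1 and 22.9 CPM and ESR1KO males 85.7, 78.8, 111 and 123 CPM. Both sexes were separated, and the common log2 fold change was 2.60 (SE 0.31, edgeR adjusted p = 0.00013). Dio1, the deiodinase that makes the active hormone from thyroxine, fell by 0.85 on the log2 scale (SE 0.15, edgeR adjusted p = 0.0040). Its WT range was 196 to 275 CPM in females and 159 to 261.5 CPM in males, and its ESR1KO range was 93.3 to 170.5 CPM and 109 to 150.2 CPM. These genes were put together after their values were seen.

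Falls were also seen in genes of other functions. Avpr1a, a vasopressin receptor, changed by -0.90 and Ang, the ribonuclease angiogenin, by -0.84 on the log2 scale, each passing in females alone and in the common effect. Ang shares its locus with another ribonuclease gene, and its count may hold reads of both. Sspo, a large secreted glycoprotein gene, changed by -1.28 and Fam81a by -0.999, and each passed in both sexes. Chic1 changed by -0.82 and Kcnk10, a potassium channel, by -0.82, and both calls could be lost by leaving out 1 mouse. Without WT female 3, for example, the edgeR adjusted p was 0.12 for Chic1 and 0.064 for Kcnk10. Chic1 was lost in 10 of the 15 such fits and Kcnk10 in 1. Wif1, a secreted inhibitor of Wnt ligands, fell by 2.88 but from a low level, with WT mice at 0.138 to 0.543 CPM and ESR1KO mice at 0 to 0.117 CPM. Cdh1, the E-cadherin of cell junctions and a gene higher around the portal vein, fell by 0.75 (SE 0.10, edgeR adjusted p = 0.00067). Its levels were 45.8 to 51.2 CPM in WT females, 21.6 to 35.7 CPM in ESR1KO females, 55.2 to 74.8 CPM in WT males and 33.7 to 46.2 CPM in ESR1KO males.

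**Figure D3:**
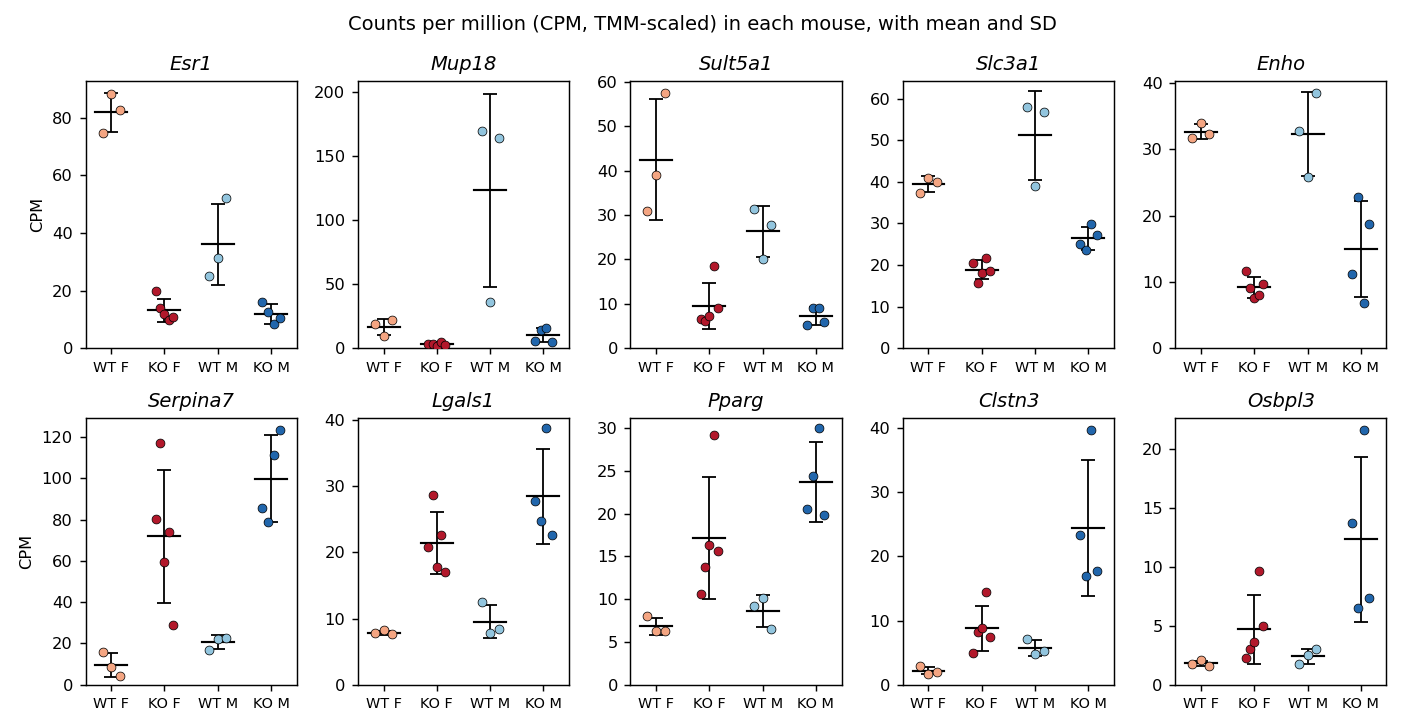
CPM of 10 genes in each mouse, with the group mean (line) and SD (bar), for WT and ESR1KO (KO) females (F) and males (M). In both sexes ESR1KO mice are below WT mice for Esr1, Mup18, Sult5a1, Slc3a1 and Enho and above them for Serpina7, Lgals1, Pparg, Clstn3 and Osbpl3.

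Pparg, Clstn3, Osbpl3 and Fitm1 were among the 12 largest rises under the same limits. Pparg, the nuclear receptor that drives fat cell formation and lipid storage, had 8.02, 6.34 and 6.23 CPM in WT females and 10.6, 13.8, 16.3, 29.2 and 15.7 CPM in ESR1KO females. WT males had 9.24, 10.1 and 6.53 CPM and ESR1KO males 20.6, 24.4, 29.99 and 19.9 CPM. All ESR1KO mice were above all WT mice of both sexes. The common log2 fold change was 1.39 (SE 0.19, edgeR adjusted p = 0.00058), 1.32 in females and 1.46 in males.

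Clstn3, a calsyntenin gene whose fat cell transcript makes a protein of lipid droplets, had 2.86, 1.75 and 1.99 CPM in WT females and 4.91, 8.16, 8.91, 14.5 and 7.47 CPM in ESR1KO females. WT males had 7.21, 4.84 and 5.33 CPM and ESR1KO males 23.4, 17.0, 39.7 and 17.7 CPM. The rise was about equal in the sexes (common log2 fold change 2.03, SE 0.24, edgeR adjusted p = 0.00013), and counts per gene do not show which transcript rose. Osbpl3, an oxysterol-binding protein family member, rose by 1.85 (SE 0.35, edgeR adjusted p = 0.0088). Fitm1, which helps to pack triglyceride into droplets, rose by 1.86 (SE 0.28, edgeR adjusted p = 0.0018), with 2.47 to 3.87 CPM in WT females, 12.8 to 32.1 CPM in ESR1KO females, 12.3 to 17.1 CPM in WT males and 21.9 to 50.5 CPM in ESR1KO males. ESR1KO female 4 and ESR1KO male 3 had the highest level of their group for Pparg, Clstn3, Osbpl3 and Fitm1. Without ESR1KO male 3 or without ESR1KO female 4, all 4 still passed.

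Since Pparg stood out, 18 genes of the lipid droplet were listed after values were seen, and 17 were tested. Of these, 8 rose and none fell, where 1.52% of all genes rose and 1.18% fell. The median log2 fold change was 0.54, against 0.0020 over all genes. Pparg, Clstn3, Osbpl3 and Fitm1, whose rises had been seen before, were on the list, which supports nothing by itself. The other rises were Cidec, which fuses droplets (1.88), Mogat1, an acyltransferase of triglyceride synthesis (1.47), Plin4, a droplet coat protein (1.04), and Hilpda (0.54). Calls lost when 1 mouse was left out were Mogat1 (edgeR adjusted p = 0.068) and Plin4 (0.088) without WT male 3 and Hilpda (0.12) without WT female 3. Hilpda was lost in 12 of the 15 such fits, Plin4 in 5 and Mogat1 in 4. The droplet coats Plin2 (0.49, edgeR adjusted p = 0.23), Plin3 (0.16) and Plin5 (0.17) did not pass, nor did the lipases' partners G0s2 (0.84, edgeR adjusted p = 0.11) and Abhd5 (0.04) or the lipase Pnpla2 (-0.21). As background, Pparg, Cidec and Plin4 are best known from fat cells, and Plin2 and Plin5 are usual droplet coats of hepatocytes.

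Fat cells attached to the liver would carry the same genes, so their markers are given here. Cfd, the complement factor adipsin of fat cells, rose from 0 to 0.0733 CPM in WT mice to 0.241 to 9.32 CPM in ESR1KO mice (log2 fold change 5.09, SE 0.82, edgeR adjusted p = 0.0026), and ESR1KO male 3 was highest. Of the 6 adipocyte markers, 3 were tested and 2 rose, Cfd and Plin4. Their summed level was 7.77 to 10.99 CPM in WT females, 10.7 to 15.96 CPM in ESR1KO females, 9.26 to 10.9 CPM in WT males and 9.84 to 34.9 CPM in ESR1KO males. The defining markers were near absent, with 0 to 4 reads of Adipoq, 0 to 2 of Plin1 and 0 of Lep in a mouse. Adrb3, the marker tested that did not rise, had an estimate of -0.48 (edgeR adjusted p = 0.068). The part of fat cells in the rises of Cfd, Plin4, Cidec and Pparg was not tested beyond these values.

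The list of fatty acid and triglyceride synthesis had 4 of 23 genes that rose and none that fell. The share that rose was 17.4%, against 1.52% of all genes. Like the other lists, it was chosen with earlier results of these data known, so the share is a description only. The median log2 fold change was 0.61 in the common effect, 0.18 in females and 0.85 in males. Scd1, the desaturase that makes oleate, had 2449, 6896 and 4078 CPM in WT females and 5831, 12520, 15550, 8830 and 3516 CPM in ESR1KO females, which overlapped. WT males had 4591, 4792 and 4565 CPM and ESR1KO males 21980, 12550, 20330 and 13890 CPM, which did not. The common log2 fold changes were 1.44 for Scd1, 1.29 for Me1 (malic enzyme, a source of NADPH), 1.05 for Elovl5 (a fatty acid elongase) and 1.01 for Gpam, which starts glycerolipid synthesis. In males 5 genes of the list passed and in females 0 (edgeR; 6 at an unadjusted p under 0.05, 2 by DESeq2). None had an interaction that passed (edgeR; 8 at an unadjusted p under 0.05, 3 by DESeq2). Leaving out single mice moved the count of 4 between 1 and 7. It was 1 without WT female 3, WT male 2 or WT male 3, and Me1 was the call that passed in every such fit.

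Among the sterol synthesis genes, 0 of 25 passed (edgeR; 1 at an unadjusted p under 0.05, 1 by DESeq2), with a median of -0.07. Of 32 fatty acid oxidation and PPARA target genes, Cd36, which takes up fatty acids (0.85), and the peroxisomal thiolase Acaa1b (1.003) rose and none fell. That was 6.25% called, against 2.71% of all genes. By sex, 9 of the 32 rose in males (median 0.33), and 1 rose and 1 fell in females (median -0.04). An interaction passed for 6. Over all genes 1.42% passed in males, 5.71% in females and 1.94% in the interaction. Of 25 apolipoprotein and lipoprotein genes, Pltp, a phospholipid transfer protein (1.43), and Apoa2 (0.36) rose and Scarb1, the receptor of high-density lipoprotein (-0.48), fell. Pltp and Acaa1b passed in males alone and not in females. Without WT male 3, edgeR adjusted p was 0.094 for Pltp, 0.077 for Acaa1b and 0.053 for Cd36. Without WT female 3 it was 0.11 for Apoa2 and 0.098 for Scarb1. Among the 15 fits that each left out 1 mouse, 11 lost Apoa2, 10 Pltp, 8 Scarb1, 5 Acaa1b and 1 Cd36.

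**Figure D4:**
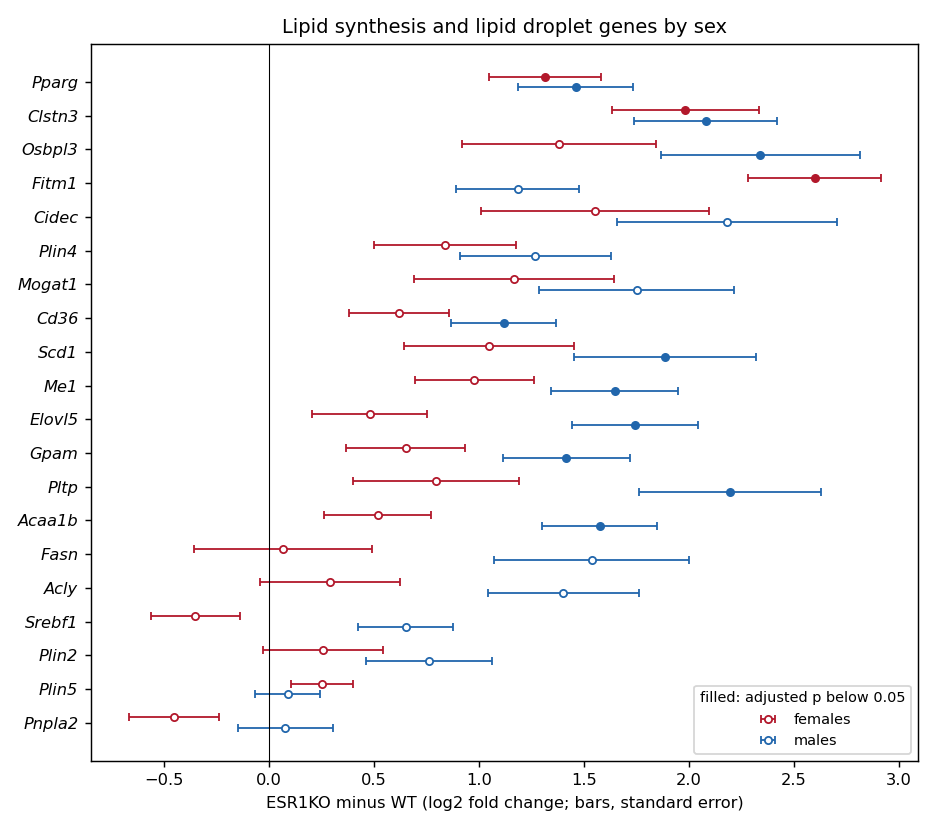
Log2 fold change of ESR1KO minus WT with its standard error for 20 lipid genes in females (red) and males (blue), with filled points for an adjusted p below 0.05. Pparg and Clstn3 passed in both sexes, Fitm1 in females alone, and Osbpl3, Cd36, Scd1, Me1, Elovl5, Gpam, Pltp and Acaa1b in males alone, while both estimates of each of these genes were above 0.

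DNA before the start sites of the 41 genes was searched for the letters that estrogen receptors and their relatives bind. Promoters of 300 bases were taken from RefSeq (GRCm38.p6), where 20 of the 27 rising genes and 9 of the 14 falling genes had an entry. The single receptor site AGGTCA, on either strand, was in 9 of 32 promoters of rising genes and in 1 of 11 promoters of falling genes. It was in 16.3% of all promoters of the table and in 13.3% of those of tested genes. The full estrogen response element (GGTCA and TGACC with 3 bases of any kind between them) was in 0.07% of all promoters and in none of these genes, and the direct repeat of AGGTCA with 1 base between, which contains the single site, was in 0.0396% and in none. These counts describe letters only and not binding.
Shown are the 100 bases before the start for the genes with a match in that stretch on the plus strand among Pparg, Unc119 (a rising lipid-binding chaperone gene) and Sspo (the falling gene with a match), with the match in capitals.
Pparg, chr6:115361044-115361143, plus strand: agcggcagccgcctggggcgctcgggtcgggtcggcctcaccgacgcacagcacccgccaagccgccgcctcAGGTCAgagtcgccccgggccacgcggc
Pparg, chr6:115362249-115362348, plus strand: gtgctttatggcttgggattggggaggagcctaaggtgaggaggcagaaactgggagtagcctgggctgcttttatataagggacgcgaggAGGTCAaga
Unc119, chr11:78345484-78345583, plus strand: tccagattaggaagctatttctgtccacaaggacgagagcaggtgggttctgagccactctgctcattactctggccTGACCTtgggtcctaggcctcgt
Sspo, chr6:48448074-48448173, plus strand: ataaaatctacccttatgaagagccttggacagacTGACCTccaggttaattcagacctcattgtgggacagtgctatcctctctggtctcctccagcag
The matches began 28 and 9 bases before the starts of Pparg, 23 before that of Unc119 and 65 before that of Sspo.

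Lgals1, Postn and Anxa1 rose in both sexes. Lgals1, the sugar-binding protein galectin-1, had 7.78, 8.23 and 7.61 CPM in WT females and 20.8, 28.7, 17.9, 22.6 and 17.0 CPM in ESR1KO females. WT males had 12.5, 7.77 and 8.42 CPM and ESR1KO males 27.8, 24.7, 38.8 and 22.6 CPM. The rise was of like size in the sexes, 1.44 and 1.58 on the log2 scale (common 1.51, SE 0.15, edgeR adjusted p = 1.9e-05). Postn, the matrix protein periostin, rose by 0.76 and Anxa1, annexin A1, by 0.65. The summed markers of stellate cells and fibroblasts overlapped between genotypes, with 546.0 to 633 CPM in WT females, 503 to 564 CPM in ESR1KO females, 444 to 606 CPM in WT males and 498 to 611 CPM in ESR1KO males. None of these 10 markers passed (edgeR; 0 at an unadjusted p under 0.05, 0 by DESeq2). The 5 mesothelial markers did not pass either (edgeR; 1 at an unadjusted p under 0.05, 1 by DESeq2), and their sum was 1.997 to 7.09 CPM in WT males and 8.34 to 9.63 CPM in ESR1KO males, and its part in these rises was not tested.

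Fst, follistatin, which binds activins, rose by 1.32 (SE 0.21, edgeR adjusted p = 0.0026), from 1.26 to 1.48 CPM to 2.05 to 5.31 CPM in females and from 2.03 to 3.58 CPM to 5.40 to 8.58 CPM in males. Slc17a8, a vesicular glutamate transporter, rose by 1.45, Klk1b4, a kallikrein with near copies, by 1.30, Olig1, a transcription factor best known from oligodendrocytes, by 2.03, and Cib3, of a calcium-binding family, by 1.86. All but Cib3 passed in both sexes. At low levels, Gal3st1, which makes sulfated glycolipids, rose by 2.18, and A4gnt, a glycosyltransferase, by 4.45. A4gnt had 0 to 0.0741 CPM in WT mice and 0.0905 to 1.52 CPM in ESR1KO mice, so its fold change rests on few reads.

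Of the xenobiotic receptors and their targets, 3 of 21 rose and 1 fell, with a median of 0.05. That was 19.05% called, against 2.71% of all genes. Cyp2c55, a cytochrome P450 that oxidises fatty acids and drugs, had 1.77, 3.92 and 2.34 CPM in WT females and 9.78, 12.5, 11.4, 9.12 and 8.96 CPM in ESR1KO females. WT males had 8.18, 5.26 and 3.95 CPM and ESR1KO males 14.5, 15.9, 11.3 and 10.4 CPM. The groups were separate in each sex, and the common log2 fold change was 1.56 (SE 0.21, edgeR adjusted p = 0.00054). Gsta1, a glutathione transferase, rose by 2.29 from under 1 CPM, and Cyp2c29 rose by 0.56. Cyp1a2, which metabolises caffeine, fell by 0.80. Its edgeR adjusted p was 0.026, and 0.097 without WT female 3, while that of Cyp2c29 was 0.063 without the same mouse.

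Lists tied to the receptor held falls and no rises in the common effect, but both in single sexes. Of the estrogen-responsive genes, 1 rose (Tff3, 4.50, edgeR adjusted p = 0.0079) and 2 fell in females, and 1 fell in males. Of the steroid hormone metabolism genes, 4 rose and 2 fell in females, and 1 rose and 3 fell in males. Of 13 estrogen-responsive genes, 0 rose and 2 fell, or 15.4% called against 2.71% of all genes, in a small list. Lifr, the receptor of leukemia inhibitory factor, had 954, 772.5 and 965 CPM in WT females and 608, 455, 563, 575 and 743.5 CPM in ESR1KO females. WT males had 801.5, 901 and 796 CPM and ESR1KO males 377, 640, 274 and 373 CPM. Both sexes were separated, and the common log2 fold change was -0.80 (SE 0.16, edgeR adjusted p = 0.012). The other, Cyp17a1, an enzyme of androgen synthesis, moved in females alone, from 79.0 to 116 CPM to 1.68 to 9.53 CPM, while males stayed at 4.19 to 7.26 CPM in both genotypes. Of the 7 steroid receptor genes tested, the only call (edgeR) was Esr1, the targeted gene itself, so its 14.3% of the list says nothing of the other members. Of 17 steroid hormone metabolism genes, Cyp17a1, counted here again, and Hsd17b2, which inactivates estradiol and testosterone, fell, or 11.8%, Hsd17b2 by 0.45. The edgeR adjusted p was 0.055 for Hsd17b2 without WT male 3 and 0.096 for Cyp17a1 without WT female 3. Cyp17a1 was lost in 10 of the 15 fits without 1 mouse and Hsd17b2 in 1.

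Plasma protein and zonation lists held small groups of falls. Of 24 acute phase genes, Orm3 (-1.96), Lcn2 (-1.37) and Lbp (-0.74) fell, or 12.5% against 1.18% of all genes, and the common median was -0.32. By sex the median was 0.01 in females and -0.41 in males, where 2 genes and 1 gene fell. Orm3 passed in females (-2.89, edgeR adjusted p = 0.00062) and not in males (-0.42, edgeR adjusted p = 0.85). It had 1.15 to 8.18 CPM in WT females and at most 0.796 CPM in every other mouse. The count of 3 was 0 without WT female 3, ESR1KO female 2 or ESR1KO female 3. Of 16 periportal genes, Cdh1, Pck1 (-0.71), the enzyme that commits carbon to new glucose, and Pigr (-0.56), the antibody transporter, fell. Of 16 pericentral genes, Cyp1a2 fell and Aldh1a1 rose (0.63). The share called was 18.75% of the periportal and 12.5% of the pericentral genes, against 2.71% of all genes. The median was -0.22 for periportal and -0.32 for pericentral genes. The periportal median was -0.49 in females and -0.05 in males, and the pericentral median was -0.48 and -0.07. In females 4 genes of each list fell, and in males 1 periportal gene and 0 pericentral genes fell (edgeR). The organic anion transporter Slc22a7 fell by 0.96 (edgeR adjusted p = 0.043). Without WT female 3 the edgeR adjusted p was 0.12 for both Slc22a7 and Pigr, and without WT female 2 it was 0.11 for Pck1 and 0.081 for Aldh1a1. Pck1 was lost in 11 of the 15 fits without 1 mouse, Slc22a7 and Pigr each in 9 and Aldh1a1 in 4.

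Ribosomal and respiratory chain genes had small positive common estimates, larger in females. All 76 cytosolic ribosomal protein genes and all 95 nuclear oxidative phosphorylation genes tested had a common estimate above 0, with medians of 0.23 and 0.20 on the log2 scale. The medians were 0.37 and 0.31 in females and 0.07 and 0.12 in males. In the common effect 3 ribosomal genes (Rpl13, Rpl36 and Rpl10a) and 5 respiratory genes (Uqcrq, Uqcr10, Uqcr11, Cox7a1 and Cox8a) passed. These were 3.95% and 5.26% of the lists, against 1.52% of all genes that rose. At an unadjusted p under 0.05 (edgeR) it was 48 and 58, and by DESeq2 19 and 18. In females alone 38 and 15 passed, where 5.71% of all genes passed in either direction. In males alone 0 and 0 passed (edgeR; 1 and 8 at an unadjusted p under 0.05, 0 and 0 by DESeq2). Uqcr10, of the cytochrome bc1 complex, had 59.5 to 65.1 CPM in WT females, 76.8 to 108.5 CPM in ESR1KO females, 74.4 to 86.6 CPM in WT males and 90.7 to 106 CPM in ESR1KO males. The share of counts from mitochondrially encoded mRNAs was 3.22% in ESR1KO female 1 and 2.63% in ESR1KO female 2, against 1.53% to 1.68% in WT females, and the top 10 genes held 24.7% and 22.1% of the counts of these 2 mice. Without ESR1KO female 1 the ribosomal and respiratory calls were 4 and 7, and without ESR1KO female 2 they were 0 and 3. Scaling by total counts, or leaving out any of several mice such as WT female 1, left 0 ribosomal calls.

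Of the 34 pathway lists, 13 had no gene that passed (edgeR; of 269 genes 31 at an unadjusted p under 0.05, 10 by DESeq2). They were core hepatocyte transcription factors, sterol synthesis, bile acid synthesis, amino acid breakdown and the urea cycle, methyl transfer, the circadian clock, coagulation factors, iron handling, the unfolded protein response, the cell cycle, the extracellular matrix, the DNA methylation machinery and the mitochondrially encoded mRNAs. The medians of these 13 lay between -0.17 and 0.23. Heat shock genes had 2 of 15 rises, Hspa1a (1.12) and Hspa1b (0.76), which are near copies, or 13.3% called against 2.71% of all genes. Single calls were Gbp3 (-0.56) among 31 interferon-stimulated genes (3.23%), Gsta1 among 20 NRF2 targets (5.0%) and Cfd among 24 complement genes (4.17%). Among 23 genes of glucose and glycogen metabolism (8.70% called), Gbe1 rose (0.43) and Pck1 fell. Of these, Gbp3 (edgeR adjusted p = 0.095), Gbe1 (0.098) and Hspa1b (0.080) were lost without WT female 3 and Hspa1a (0.088) without WT male 3. Gbe1 was lost in 11 of the 15 fits without 1 mouse, Hspa1a in 6, Gbp3 in 5 and Hspa1b in 4.

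**Figure D5:**
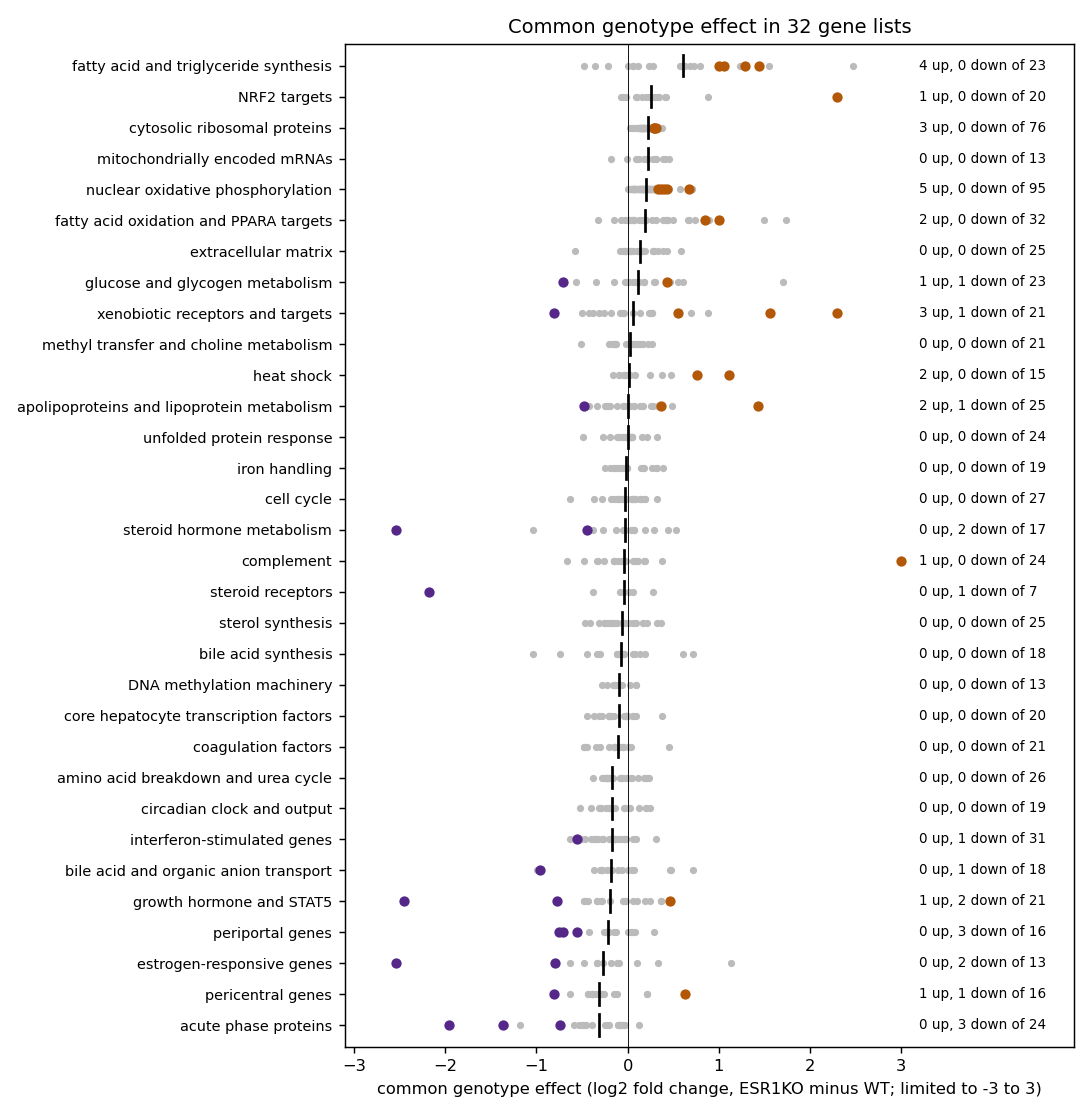
Common log2 fold change of every tested member of 32 gene lists (grey points), with genes that passed in orange (up) and purple (down) and the list median as a black bar, ordered by median and limited at 3 in either direction. Fatty acid and triglyceride synthesis has the highest median, 0.61, and acute phase proteins the lowest, -0.32.

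The sex-biased lists show what the common effect leaves out. Of 25 female-biased liver genes, 13 fell in the common effect (52.0%, where 1.18% of all genes fell). These calls came from females, where 20 fell, while 6 rose in males. Over all genes 5.71% passed in females, 1.42% in males and 1.94% in the interaction. Cyp3a41a, a cytochrome P450 of female liver, had 204 to 321 CPM in WT females, at most 0.0207 CPM in ESR1KO females and at most 0.0133 CPM in males of either genotype. Its common effect therefore carries nothing from males. Of 25 male-biased genes, 19 rose in females, 11 fell in males and 23 had an interaction that passed. In the common effect 1, Moxd1, passed (4.0%, against 2.71% of all genes). Gstp1, a glutathione transferase, had 85.0 to 122 CPM in WT females and 295 to 519.6 CPM in ESR1KO females, against 1334 to 1734 CPM in WT males and 550.0 to 756 CPM in ESR1KO males. Its opposite moves left a common log2 fold change of 0.22 (edgeR adjusted p = 0.85).

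In the growth hormone list, 1 of 21 rose and 2 fell, or 14.3% called against 2.71% of all genes. Igfbp3, a carrier of insulin-like growth factors, rose by 0.46, about equally in females (0.45) and males (0.47), with separate groups in both sexes. Cux2 and Trim24, regulators higher in female liver, fell in females and did not pass in males (edgeR adjusted p = 0.93 and 0.86). In males they were at 0.465 to 0.840 CPM in WT and 0.325 to 0.610 CPM in ESR1KO for Cux2, and at 20.9 to 30.9 CPM and 18.7 to 25.1 CPM for Trim24. Without WT female 3 the edgeR adjusted p was 0.070 for Igfbp3 and 0.099 for Trim24. Trim24 was lost in 10 of the 15 fits without 1 mouse and Igfbp3 in 2.

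Genes near the targeted locus were looked at on their own. Within 10 Mb of Esr1, 53 genes were tested and 4 passed: Esr1, B430219N15Rik, Mthfd1l (0.63) and Pex3 (0.26). The last 2 were lost without WT female 3 (edgeR adjusted p = 0.087 and 0.095). Mthfd1l was lost in 10 of the 15 fits without 1 mouse and Pex3 in 5. On chromosome 10 as a whole 34 of 855 passed, or 3.98%, against 2.71% of all genes. B430219N15Rik (chr10:7780185-7781357) had the largest fall of the 41 genes, -3.24 (SE 0.34, edgeR adjusted p = 3.2e-05), from 1.71 to 7.88 CPM in WT mice to 0.211 to 0.610 CPM in ESR1KO mice. Its interval lies inside that of Ginm1, a gene that did not pass (-0.19, edgeR adjusted p = 0.34), and strand use in counting was not given. The part of local sequence differences in these changes was not tested.

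How many genes passed in both sexes depended on single mice. Without WT male 3 only 11 of the 41 passed in both sexes, and without ESR1KO male 1 or ESR1KO male 3 it was 18. All 41 kept 1 direction in both sexes in these fits, but they had been chosen for it. The genotypes were separate in each sex for all of them except 2010003K11Rik, so leaving out 1 mouse could hardly turn a direction.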

How the data were processed

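The authors isolated total liver RNA, depleted ribosomal RNA, sequenced paired-end reads on a NovaSeq with a further run for libraries short of reads (which ones is not given), and, per the submitters' processing notes, used Trimmomatic 0.36, STAR and HTSeq 0.6.0 on GRCm38. The deposited values are whole-number counts per gene, not normalized, and no column was left out. Genes passing edgeR's filterByExpr for the 4 groups were scaled by TMM and tested in R 4.3.3 with the quasi-likelihood F test of edgeR 4.0.16. The common effect was the genotype coefficient beside sex, and effects per sex and the interaction came from a model with a mean per group. Benjamini-Hochberg adjustment covered all 17655 genes, and calls needed an adjusted p under 0.05. With 5 or fewer mice per group, precision is set mainly by the spread between mice, and for genes with few reads by depth as well. Of the 478 calls in the common effect, 103 had a mean log2 CPM under 0. The fits were tested on simulated data. CPM carry the TMM factors, and log2 CPM a prior count of 2. Positions are from GENCODE M21, which holds 17650 of the tested genes.

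Members, gene lists and the naming rule were chosen with earlier results of these data known. Named are Esr1, the 12 largest rises and 12 largest falls among called protein-coding genes averaging a log2 CPM of 1 or more, no interaction and separate groups in each sex (77 rises and 62 falls qualified), up to 4 called genes per list and some genes of the study's methylation panel; a few others are not reported here. Genes outside this rule that passed in both sexes, the lipid droplet genes, Cox8a, Ginm1, Adrb3 and the neighbours of Esr1 were chosen after their values were seen. Replicate numbers did not pair the mice. Alternatives were other scaling, filters, fold minimums and tests (DESeq2 1.42.0), a replicate block, separate fits, and each mouse left out. The listing of 1 CPM in each sex was added after the data were seen.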

Additional observations from a re-analysis of the deposited data

Results flagged for a closer look

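The sexes differed by the interaction test for 16 of the 113 genes examined by name, given here as the female minus the male genotype effect on the log2 scale (edgeR, adjusted p under 0.05). The female effect was lower for Cyp17a1 (-4.12), Trim24 (-1.18) and Aldh3b3 (-5.78). It was higher for Cyp7b1 (3.72), Hsd3b5 (3.85), Gstp1 (3.15) and Elovl3 (3.79). At least 1 group had no reads or only a few for Sult3a1 (-11.02), Cyp2b13 (-13.42), Cyp3a41a (-15.98), Sult2a2 (-13.99), Cyp2b9 (-13.92), Aldh3b3 (-5.78) and Moxd1 (15.86). These sizes depend on the prior count of the fit. Aqp4 (1.70), Snhg11 (1.90) and 9130409I23Rik (1.51) rose in both sexes, more in females.

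Of 226 groups of 4 or 5 mice examined for single distant values, 10 were flagged, and chance flags about 1 in 20. The value given is the gap to the nearest mouse over the range of the group. ESR1KO male 1 was lowest for Cux2 (0.858) and Uqcrq (0.869), and ESR1KO male 4 was lowest for Aldh1a1 (0.975). ESR1KO male 4 was highest for Cyp3a41a (1.0) and Moxd1 (1.0) and ESR1KO female 4 for Sult2a2 (1.0), where all other mice of the group had no reads. ESR1KO male 3 was highest for Elovl3 (0.881) and Arhgap26 (0.914), and ESR1KO female 4 for Mogat1 (0.739). ESR1KO female 5 was lowest for Hilpda (0.783).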

How the results depend on the processing

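The common effect of the named genes that passed reversed under no alternative. The balance of rises and falls did turn in the common effect, with scaling by total counts (219 higher, 227 lower) and at a log2 fold change of at least 1.5 (38 and 54). Every one of the 41 genes kept 1 direction in both sexes in each fit that tested it, but these genes had been chosen for that. Counts of calls moved. Against 478, the common effect had 729 calls as the mean of the female and male effects, 1007 by DESeq2, 156 and 92 at a log2 fold change of at least 1 and 1.5, 248 with the replicate block, and 217 (without WT female 3) to 597 (without ESR1KO female 1) with a mouse left out. It was 289 without WT female 2, 309 without ESR1KO female 2 and 265 without WT male 3. Against 41, the genes moving alike were 94 by DESeq2, 81 with no filter, 23 at a log2 fold change of at least 1.5 and 11 (without WT male 3) to 61 (without ESR1KO female 5) with a mouse left out. Without WT male 2, rises were 12 of 26.

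For the genotype effect in females, against 1008, 1546 passed by DESeq2, 456 with the sexes fitted apart and 408 to 1535 with a mouse left out. For the genotype effect in males, against 250, 499 passed by DESeq2, 411 with no filter, 165 with the replicate block, 415 with the sexes fitted apart and 98 to 331 with a mouse left out. The interaction had 594 calls by DESeq2, against 343. The cause was not tested, except that fits without a mouse have fewer samples. Same-numbered mice of different groups did not deviate together (correlations -0.195 to 0.14 over 19 pairs), and 1 of 15 correlated best with its own number, so the block is given only here; it kept 20 of the 41 genes. Named genes kept their side of the threshold in 813 of 867 other settings and in 1232 of 1485 fits without a mouse, and list counts stayed within 1.5 times in 339 of 414 and 538 of 690. Each sex had only 3 WT mice, which limits small lists and genes under 1 CPM. Calls were lost without single WT mice and also without single ESR1KO mice.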
